A study of Mus musculus with 36 samples.

Results

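The genes described here were 39 genes of the cell cycle and of DNA replication, chosen by name from the 21442 genes of a mouse RNA-seq count table and followed through 36 libraries. They fell into 7 roles. Helicase loading was represented by Mcm2 to Mcm7, Cdc6 and Cdt1. Helicase activation and the fork were represented by Cdc45, Gins1, Gins2 and Pcna, and nucleotide supply by Rrm1, Rrm2, Tk1 and Tyms. The cyclins and kinases of G1 and of entry into S phase were Ccnd1, Ccnd2, Ccnd3, Ccne1, Ccne2, Cdk2, Cdk4 and Cdk6, and the E2F activators were E2f1, E2f2 and E2f3. Later phases were represented by Ccna2, Ccnb1, Ccnb2 and Cdk1, and mitosis by Plk1, Aurka, Aurkb, Bub1, Cdc20, Birc5, Top2a and Mki67. All 39 were found, all received an FDR in each comparison, and the lowest raw count of any of them in any library was 15.

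The libraries came from wild-type (WT) and Zfp266 knockout (KO) cells at 6 stages, with 3 libraries in each of the 12 groups. Zfp266 encodes a zinc finger protein that the study took up as a roadblock to reprogramming. WT mouse embryonic fibroblasts (MEFs) were passage 2 fibroblasts of E12.5 embryos of strain 129 that carried Cas9 at Rosa26, an MKOS-ires-mOrange cassette (Myc, Klf4, Oct4 and Sox2) at the Sp3 locus that answers to doxycycline, and Nanog-GFP-ires-Puro as a reporter of pluripotency. They received a lentivirus with a non-targeting sgRNA, and KO MEFs were the same kind of cells with a Zfp266 sgRNA, so a KO library from MEFs or from reprogramming was an edited population and not a clone. Both were taken 96 h after transduction, without a sort. Day 3, day 5 and day 7 (D3, D5 and D7) cells of both genotypes were transduced 24 h before the cassette was switched on with 300 ng/ml doxycycline and 10 µg/ml vitamin C in ESC medium, and mOrange-positive cells were sorted from cultures that also held WT MEFs. The induced pluripotent stem cell (iPSC) groups were 3 clones each of control and Zfp266 KO cells of strain 129, grown without doxycycline and with 1 µg/ml puromycin. The WT embryonic stem cells (ESCs) were 3 samples of the parental line Clone J, and the KO ESCs were 3 clones made from it, with no strain in the labels. The labels do not say whether replicates of MEFs and reprogramming cells came from separate embryos or cultures, so what their spread covers is not known. For each gene the p-values rest on 1 spread estimated over all 36 libraries, unless a fit of fewer libraries is named.

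As background, cyclin-dependent kinases and their cyclin partners move a cell through its cycle. Cyclin D with Cdk4 or Cdk6, and then cyclin E with Cdk2, inactivate the Rb family and free E2F factors, which drive genes of origin licensing, nucleotide supply and DNA synthesis. Genes of the later phases are held down in resting cells through CHR elements of their promoters, and CCAAT boxes there bind the activator NF-Y. Mouse ESCs are known for a short G1 phase with little cyclin D and much cyclin E, and fast division is a known trait of cells that complete reprogramming.

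Promoters are shown for 4 members that were higher in KO cells at both D5 and D7 and that carry some of the letters marked below. The sequences are RefSeq promoters of GRCm38.p6, 250 bases up to the start of the transcript, written 5′ to 3′ on the strand of the gene. Capitals mark matches on either strand to the E2F letters TTTCGCGC or TTTGGCGC, to CCAAT, and to the CHR letters TTTGAA or TTCGAA. Ccnb2 lies at chr9:70421555-70421804 (minus strand), Top2a at chr11:99024190-99024439 (minus), Mcm2 at chr6:88898781-88899030 (minus) and Mcm5 at chr8:75109259-75109508 (plus). The 2 matches of the Mcm5 promoter to the E2F letters overlap in a single run.
Ccnb2: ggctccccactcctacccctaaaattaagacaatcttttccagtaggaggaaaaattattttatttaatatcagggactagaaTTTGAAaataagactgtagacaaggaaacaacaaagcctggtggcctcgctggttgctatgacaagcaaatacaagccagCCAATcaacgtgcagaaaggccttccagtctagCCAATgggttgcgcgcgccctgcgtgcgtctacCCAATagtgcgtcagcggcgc
Top2a: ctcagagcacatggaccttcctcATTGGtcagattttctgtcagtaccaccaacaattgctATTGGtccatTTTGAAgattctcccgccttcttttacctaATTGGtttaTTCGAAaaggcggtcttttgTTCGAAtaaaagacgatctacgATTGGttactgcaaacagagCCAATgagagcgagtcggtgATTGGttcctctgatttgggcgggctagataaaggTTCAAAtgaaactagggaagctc
Mcm2: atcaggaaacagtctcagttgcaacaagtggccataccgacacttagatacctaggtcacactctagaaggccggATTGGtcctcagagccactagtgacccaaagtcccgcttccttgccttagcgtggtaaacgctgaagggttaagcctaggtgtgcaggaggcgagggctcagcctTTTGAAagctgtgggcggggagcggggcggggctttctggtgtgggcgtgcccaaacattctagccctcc
Mcm5: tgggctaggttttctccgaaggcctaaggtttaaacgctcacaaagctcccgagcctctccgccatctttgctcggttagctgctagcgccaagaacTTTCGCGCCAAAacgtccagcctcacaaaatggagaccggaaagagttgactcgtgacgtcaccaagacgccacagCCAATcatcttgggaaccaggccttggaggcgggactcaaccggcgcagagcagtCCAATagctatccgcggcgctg
The Ccnb2 promoter held 3 CCAAT and 1 CHR match, and that of Top2a held 6 CCAAT and 4 CHR matches. The Mcm2 promoter held 1 CCAAT and 1 CHR match, and none to the E2F letters. Of the 39 members, 31 had an entry in the promoter table. CCAAT was in 22 of these 31 (71.0%) and in 33.8% of all 32851 promoters, the CHR letters in 10 (32.3%) and in 17.1% of all, and the E2F letters in 3 (9.68%) and in 0.654% of all. The 31 members had 35 promoter sequences, and a member counted if any of its sequences held the letters. The shares over all are per promoter sequence, so the 2 kinds of share are not in the same unit. The 3 with E2F letters were Mcm5, Mcm6 and Cdk1. The windows of Tk1 and Ccne1, which also rose in KO cells at D7, held none of these letters.

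Total counts ranged from 19224103 to 39610939 per library. The edited gene was measured first. Zfp266 read 2924, 3096 and 2828 normalised counts in WT and 3235, 3293 and 3072 in KO MEFs, so its level was not lower after editing there. At D7 it read 1437, 1432 and 1535 in WT and 1552, 1557 and 1500.5 in KO cells, and in iPSCs 2529.5, 2817 and 2594 in WT and 1954, 1892 and 2212 in KO clones. KO was lower in iPSCs (log2FC -0.39, FDR = 9.95e-06 by the Wald test of DESeq2, used for every FDR below) and slightly higher at D3 (log2FC 0.32, FDR = 0.00883). Small insertions and deletions can leave an mRNA in place, so these counts do not check the genotype. Normalised counts are raw counts divided by the size factor of the library. A gene is called where its FDR was below 0.05, and a DEG also had an absolute log2FC above 1.

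MEF KO replicate 3 stood apart from the other MEF libraries. Over the 39 members its mean log2(normalised count + 1) was 10.30, against 10.69 and 10.71 in the other KO MEFs and 10.76 to 10.78 in WT MEFs. Mki67, a marker of dividing cells, read 5087, 5128 and 4623 in WT and 4428, 3945 and 479 in KO MEFs, and Ccnd1, which encodes cyclin D1, 28999, 26257 and 26499.6 in WT and 28728, 28699 and 6354 in KO MEFs. In both genes the third KO library was the single low one. The summed level of 9 fibroblast markers was 412559 to 583781 in KO MEFs and 442629 to 458083 in WT MEFs, and that of 4 epithelial markers 413 to 2930 in KO and 1804 to 2081 in WT. Left out of the fit, it gave 31 members called between KO and WT at D7 (30 with it), 12 in iPSCs (10 with it) and 9 in ESCs (6 with it), and the counts for the other stages stand beside their results. The matching counts over all genes at D7, in iPSCs and in ESCs are not given here.

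**Figure D1:**
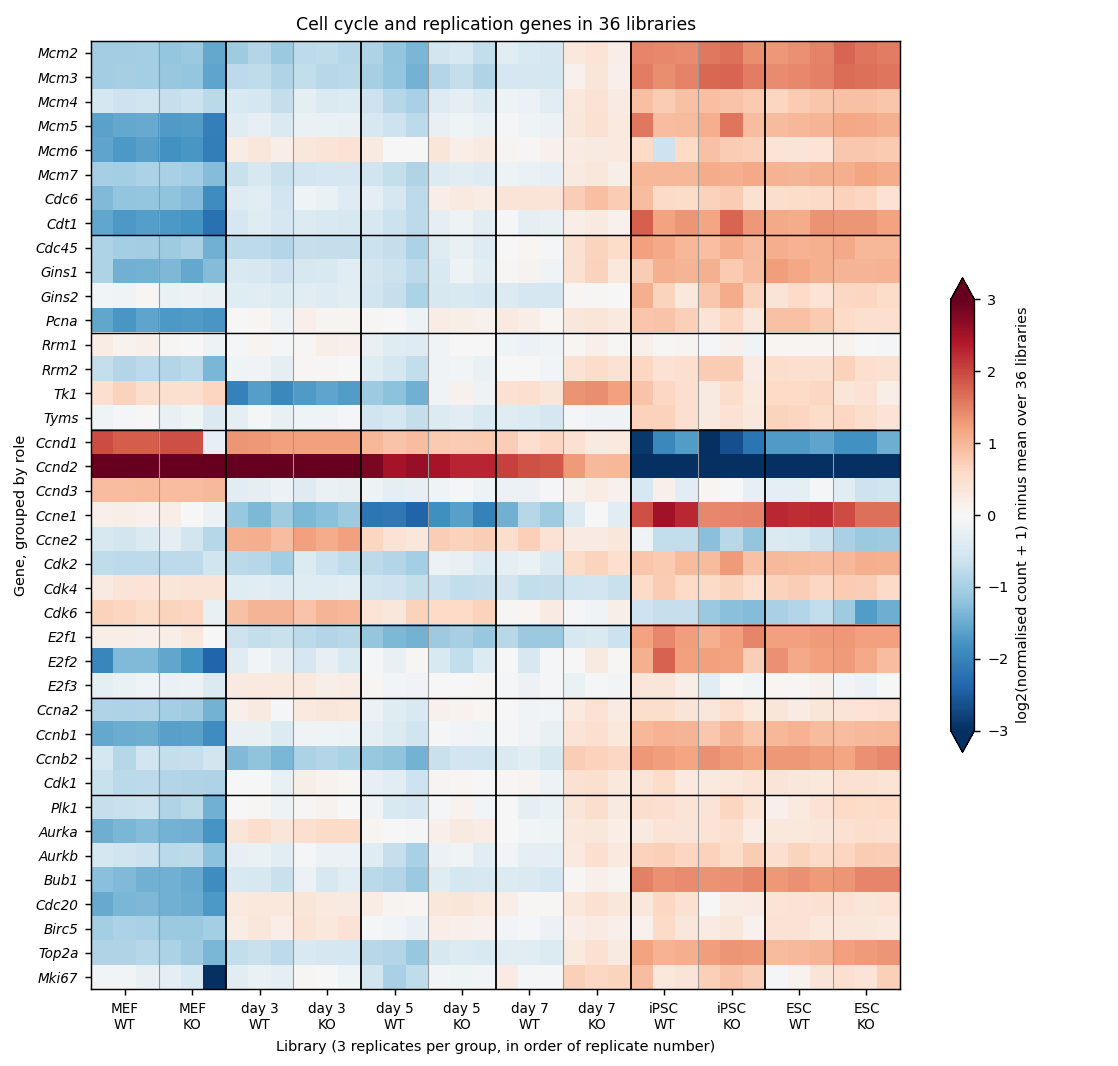
Each cell of the map is the log2(normalised count + 1) of a gene (rows, grouped by role) in a library (columns, 3 per group) minus the mean of that gene over the 36 libraries, on a colour scale cut at -3 and 3. Most rows are highest in iPSCs and ESCs, Ccnd1 and Ccnd2 run the other way, and MEF KO replicate 3 stands out for Mki67.

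Along the WT series most of these genes were at their highest in pluripotent cells. Of the 39 members, 24 had their highest WT mean in iPSCs and 8 in ESCs, 4 in MEFs (Rrm1, Ccnd1, Ccnd2 and Ccnd3) and 3 at D3 (Ccne2, Cdk6 and Aurka). The lowest WT mean was in MEFs for 19 and at D5 for 11. The path between was not steady. Mean log2 levels over the members were 10.77 in WT MEFs, 11.11 at D3, 10.85 at D5, 11.20 at D7, 11.83 in iPSCs and 11.79 in ESCs, with SDs of 0.01, 0.06, 0.13, 0.05, 0.04 and 0.02 (n = 3 each). The WT libraries at D5 were all below those at D3 and at D7.

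From MEFs to D3, 22 members were higher and 8 lower in WT cells, where 33.8% of all genes tested were higher and 37.1% lower. The medium changed together with the factors between these stages, and the 9 fibroblast markers summed to 442629 normalised counts or more in WT MEFs and to 55848 or less at D3. In bulk RNA, fewer cells of a type and less RNA per cell cannot be told apart. Mcm6 and Aurka had the largest increases. Aurka, a kinase of the spindle poles, read 882, 945 and 989 in WT MEFs and 3157, 3494 and 3122 at D3 (log2FC 1.79, SE 0.08, FDR = 1.45e-113). Mcm6, a subunit of the replicative helicase, read 2294, 2093 and 2229 and then 8009.9, 8682 and 7883 (log2FC 1.89, SE 0.17, FDR = 4.6e-29). The 3 libraries at D3 lay above all 3 of MEFs for both genes. Cdc20, which activates the anaphase-promoting complex, and Pcna, the sliding clamp of the polymerases, were also higher, by log2FC 1.71 and 1.61.

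Tk1, the thymidine kinase of the nucleotide salvage pathway, went the other way. It read 1242, 1412 and 1272 in WT MEFs and 215, 278 and 230 at D3, the largest change of any member in this step (log2FC -2.44, SE 0.11, FDR = 7.08e-105). The exons of Tk1 share 83 bases with Afmid on the opposite strand. Ccne1 and Ccnd3 were lower by more than 1 on the log2 scale as well (-1.33 and -1.20), whereas Ccne2, the second cyclin E gene, was higher (1.52, FDR = 3.35e-27). Within the E2F activators, E2f2 (1.27) and E2f3 (0.48) were higher and E2f1 (-0.86) was lower. In KO cells 28 members were higher and 6 lower over the same step, where 33.8% and 37.6% of all genes were.

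Between D3 and D5 WT cells went back. One member was higher and 20 were lower, where 12.4% of all genes were higher and 12.7% lower. Tk1 was the 1 that was higher (log2FC 0.63). Ccne1 fell the most, from 543, 465 and 569 to 266, 267 and 226 normalised counts (log2FC -1.05, FDR = 1.96e-10), with no overlap of the groups. Of the mitotic genes 6 of 8 were lower, among them Aurka (-0.41) and Bub1 (-0.39), a checkpoint kinase of the kinetochore. In KO cells 5 members were higher and 9 lower in this step, where 14.5% and 14.8% of all genes were. With only the groups compared in the fit 9 were higher and 13 lower. That fit called 7144 of all genes, where the fit of all libraries called 3047 higher and 3111 lower. From D5 to D7, WT cells had 23 members higher and 1 lower (all genes 13.5% and 10.7%) and KO cells 27 higher and 3 lower (20.3% and 21.3%). Tk1 led in WT cells, from 416, 377 and 326 to 1205, 1242 and 1127 (log2FC 1.67, FDR = 6.73e-52), and Ccnd2 was the 1 that was lower (log2FC -0.70). The pluripotent markers Dppa4, Dppa5a, Esrrb, Fbxo15, Nanog, Tdgf1, Utf1 and Zfp42 summed to 1288 to 1535 at D5 and to 5485 to 9467 at D7 in WT cells, and their part in these changes was not tested.

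From D7 to iPSCs 32 members were higher and 4 lower in WT cells, where 35.8% and 37.7% of all genes were. The change of cyclins was the largest in the set. Ccnd2, which encodes cyclin D2, read 10629.8, 9767 and 9381 at D7 and 65.6, 187 and 82.6 in iPSC clones (log2FC -6.47, SE 0.24, FDR = 2.56e-158). Ccnd1 read 12451, 10706 and 11646 and then 1008, 1953 and 2350.2 (log2FC -2.71, SE 0.33). Ccne1 read 437, 654 and 571 and then 4558, 6806 and 5733 (log2FC 3.36, SE 0.14). None of the 3 genes had overlapping groups.

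Per kilobase of exon, which allows levels of different genes to be compared, Ccnd2 and Ccne1 changed places. Ccnd2 had 2826 ± 85.3 normalised counts per kilobase in WT MEFs (mean ± SD, n = 3) and Ccne1 497 ± 7.35. In WT ESCs Ccnd2 had 11.2 ± 0.28 and Ccne1 2119 ± 32.0. Ccnd3 stayed between 335 and 369 per kilobase from D3 to ESCs. In WT MEFs Ccnd1 was the most abundant member at 5787 per kilobase, and in WT ESCs it was ranked 26 of 39. Between WT iPSCs and WT ESCs no member was called by DESeq2 or edgeR, where 3.20% of all genes were called by DESeq2, and 2 had an unadjusted p below 0.05 in DESeq2. Without WT iPSC replicate 3 or without MEF KO replicate 3 the count was 2, and without WT ESC replicate 3 it was 1. In this order these fits called 1862, 782 and 789 of all genes, where the fit of all libraries called 407. The largest estimate was Ccnd1 at 0.43 (SE 0.34).

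**Figure D2:**
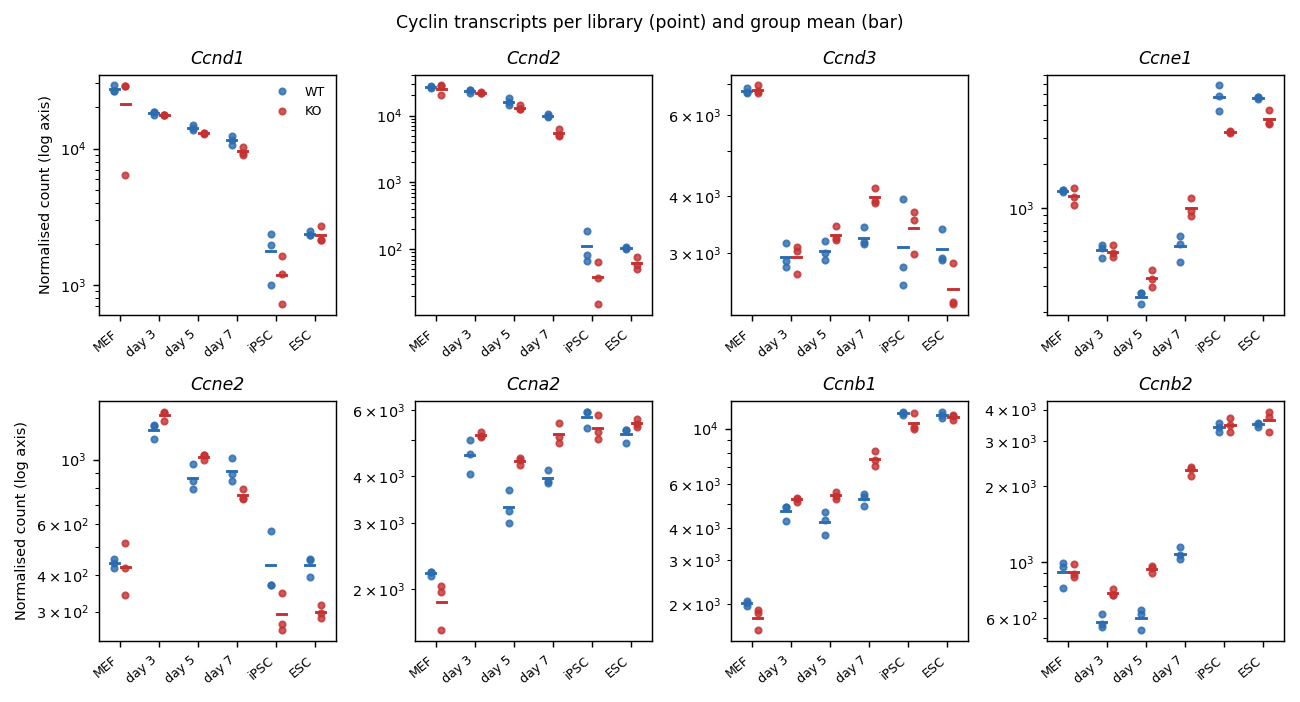
Normalised counts on a log axis are plotted per library (points) with the group mean (bar) for 8 cyclin genes at the 6 stages, WT in blue and KO in red. Ccnd2 drops from at least 25932 in WT MEFs to 187 or less in iPSCs and ESCs, and Ccne1 has its trough at D5. Ccna2, Ccnb1 and Ccnb2 of KO cells lie above WT at D3, D5 and D7.

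In MEFs no member was called between KO and WT by DESeq2 or edgeR, where 0.0428% of all genes were called by DESeq2 (9 of 21020). An unadjusted p below 0.05 was reached by 11 members, and 35 of 39 estimates were negative with a median log2FC of -0.16, against -0.00235 over all genes tested. KO MEF libraries lay wholly below WT for 15 members and wholly above for none, where 6.49% and 5.89% of all genes did. Top2a, the topoisomerase that untangles replicated DNA, read 6445, 6436 and 6636 in WT and 6267, 5688 and 4664 in KO MEFs, without overlap. Without KO replicate 3 no member was called either. Without KO replicate 1 the count was 2 and without KO replicate 2 it was 1, all lower. These fits called 184 and 106 of all genes, where the fit of all libraries called 9.

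At D3 1 member was called, Ccnb2, which encodes a cyclin partner of Cdk1 in mitosis, where 0.374% of all genes were higher and 0.119% lower. It read 568, 623 and 552 in WT and 740, 785 and 741 in KO cells, and the 3 KO libraries lay above the 3 of WT (log2FC 0.38, SE 0.09, FDR = 0.00424). The call was not made by edgeR (adjusted p = 0.0541), nor without WT replicate 3 (FDR = 0.114) or without KO replicate 2 (FDR = 0.0863). KO libraries lay wholly above WT for 16 members and wholly below for 2 at D3, where 7.87% and 8.29% of all genes did. Among the 16 were Cdk2, Top2a, Ccna2, Ccnb1 and Cdk1, none of which was called. The median log2FC over the members was 0.13 at D3. Without MEF KO replicate 3 in the fit 2 members were called, both higher, and with only the D3 libraries 3 were. The fit without MEF KO replicate 3 called 117 of all genes. The fit of D3 libraries called 308 of all genes, where the fit of all libraries called 60 higher and 19 lower.

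At D5 19 of the 39 members (48.7%) were higher in KO cells and none was lower, where 4.72% of all genes were higher and 2.43% lower. The median log2FC of the members was 0.35, against -0.0118 over all genes tested. All 4 genes of the later cyclins and Cdk1 were higher, as were 6 of 8 of helicase loading, 3 of 4 of nucleotide supply and 4 of 8 of mitosis. Of the G1 cyclins and kinases only Cdk2 was (log2FC 0.62), and of the E2F activators none. With only D5 libraries in the fit, 28 were higher and 2 lower. That fit called 2301 of all genes, where the fit of all libraries called 835 higher and 430 lower. KO libraries lay wholly above WT for 32 members and wholly below for 3, where 16.1% of all genes did so in either direction.

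Tk1 had the largest change at D5 and was the only DEG among the members, where 1.19% of all genes were DEGs. It read 416, 377 and 326 in WT and 814, 965 and 787 in KO cells, a 2.29-fold higher level (log2FC 1.19, SE 0.11, FDR = 3.08e-25). Ccnb2 read 647, 623 and 537 in WT and 905, 964 and 946 in KO cells (log2FC 0.64, FDR = 3.37e-11). Top2a read 6826, 6508 and 5516 in WT and 8646, 9032 and 8765 in KO cells (log2FC 0.49, FDR = 8.82e-08). In all 3 genes every KO library lay above every WT library, and WT replicate 3 was the lowest of the WT libraries. Without that library 14 members were called, and without MEF KO replicate 3 the count was 27. Counts over all genes in these fits are not given here. Mcm3, Mcm5, Rrm2, Aurkb and Birc5 were the calls at D5 that were lost on leaving out at least 1 library. Mcm5 was lost most often, with an FDR of up to 0.222.

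At D7 29 members (74.4%) were higher in KO cells and 1 was lower, where 13.3% of all genes were higher and 16.1% lower. The median log2FC was 0.47, against -0.0449 over all genes tested. All 19 members called at D5 were among the 29 of D7, which is 100% of the first list and 65.5% of the second. The comparisons share no library, but both take the spread of each gene from the same fit. The overlap of calls over all genes was not counted. Ccnb2 alone passed the threshold of a DEG, where 8.37% of all genes did. KO libraries lay wholly above WT for 33 members and wholly below for 3, where 20.8% and 26.6% of all genes did. The 9 members not called were Mcm6, Pcna, Ccnd1, Ccne2, Cdk4, Cdk6, E2f2, E2f3 and Mki67.

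**Figure D3:**
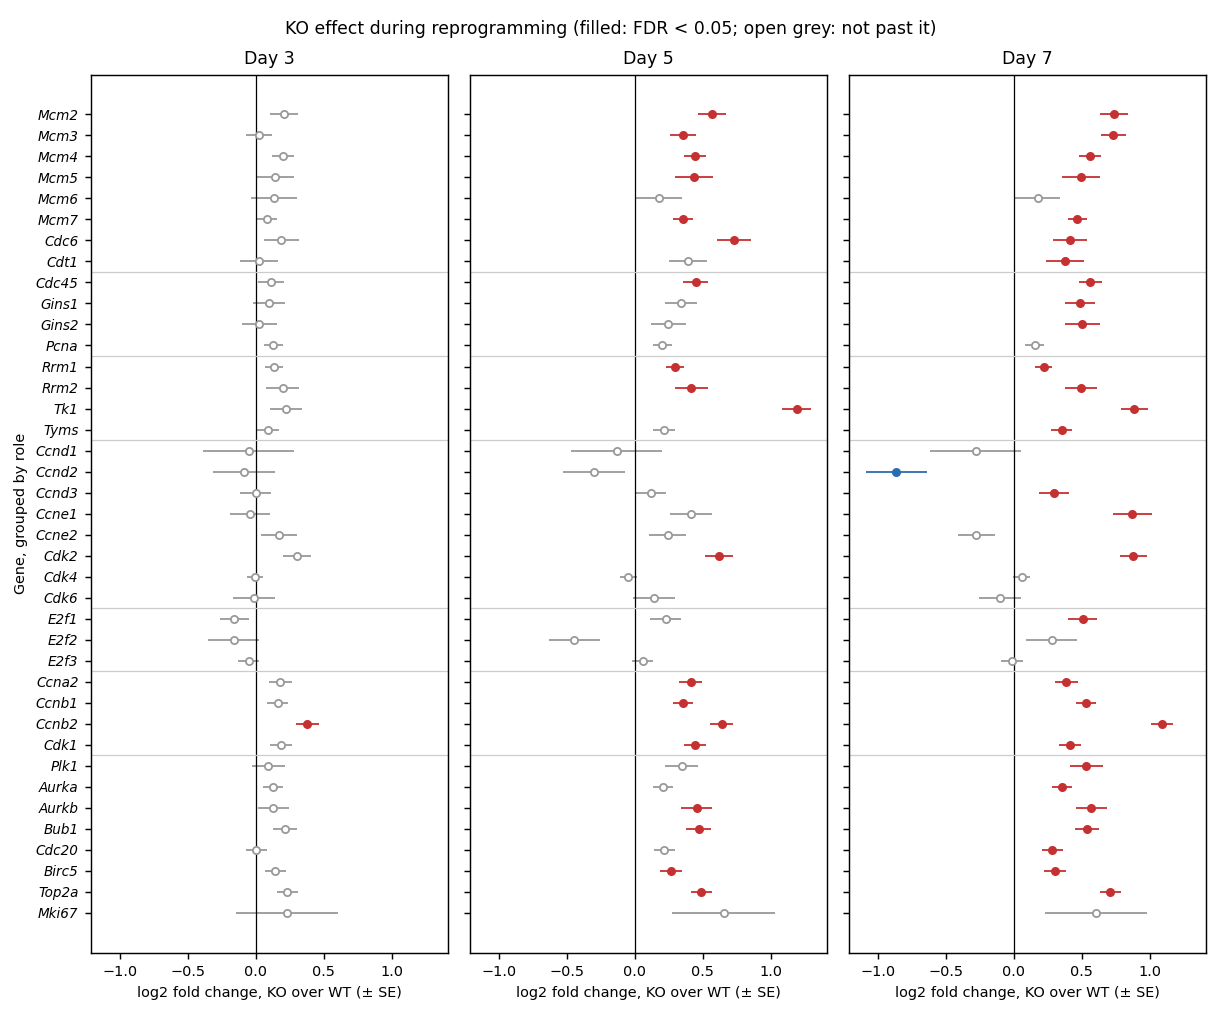
The log2 fold change of KO over WT with its SE is plotted for each gene (rows, grouped by role) at D3, D5 and D7, from 3 KO and 3 WT libraries a day. Filled points passed FDR < 0.05, 1 at D3, 19 at D5 and 30 at D7, and Ccnd2 at D7 is the single filled point left of 0.

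By role at D7, helicase loading had 7 of 8 members higher, all but Mcm6. Mcm3, a helicase subunit like Mcm6, read 3630.1, 3674 and 3558 in WT and 5653, 6626 and 5759.8 in KO cells (log2FC 0.73, SE 0.09, FDR = 4.96e-13). Mcm2 was close to it (log2FC 0.73), and Mcm6 had 0.18 with an SE of 0.17. Cdc6 and Cdt1, which load the helicase onto origins, were higher by 0.41 and 0.38, and the call of Cdt1 was lost without any 1 of 4 libraries (FDR up to 0.113). Among genes that fire the helicase, Cdc45 read 778, 810 and 738 in WT and 1068, 1226 and 1139 in KO cells (log2FC 0.56, FDR = 2.83e-09). Gins1 and Gins2, subunits of the GINS complex, were higher by 0.48 and 0.50. KO libraries were above WT without overlap in each of these genes, Mcm6 included. Of the 4097 exon bases of Gins2, 2758 are shared with Gse1 on the opposite strand. Reads of Gse1 may therefore be among the counts of Gins2.

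All 4 genes of nucleotide supply were higher at D7. Tk1 read 1205, 1242 and 1127 in WT and 2240.2, 2300.5 and 2067 in KO cells (log2FC 0.89, SE 0.10, FDR = 4.76e-17). Rrm2, the regulated subunit of ribonucleotide reductase, was higher by 0.49, Tyms, the thymidylate synthase, by 0.35, and Rrm1, the large reductase subunit, by 0.22. The 3 KO values of Tk1 were close to one another and all above the 3 WT values. The call of Rrm1 was lost without KO replicate 2 (FDR = 0.0534).

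The G1 cyclins and kinases were split, with 3 of 8 higher and 1 lower. Cdk2, the kinase partner of cyclins E and A, read 1287, 1384 and 1178 in WT and 2332, 2499 and 2245 in KO cells (log2FC 0.88, SE 0.10, FDR = 1.86e-16). Ccne1 read 437, 654 and 571 in WT and 896, 1183 and 963 in KO cells (log2FC 0.87, FDR = 4.23e-08). Ccnd2 read 10629.8, 9767 and 9381 in WT and 6212, 5023 and 5109.9 in KO cells (log2FC -0.86, FDR = 0.00109). The KO libraries were above WT for the first 2 genes and below WT for Ccnd2, with no overlap in any of the 3. Ccnd3 was higher by 0.29, a call lost without any 1 of 5 libraries (FDR up to 0.129), and Cdk4 had a log2FC of 0.06 (SE 0.06). Cdk2 shares exon bases with Pmel and Ccnd2 with 2 antisense transcripts on the opposite strand, and whether counting used the strand was not stated. Such overlap was annotated for 14 of the 39 members, among them Ccnd1 (1100 bases), Ccne2 (609) and Ccna2 (510).

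Of the E2F activators 1 of 3 was higher, E2f1, which read 367, 301 and 305 in WT and 472, 488 and 422 in KO cells (log2FC 0.51, FDR = 2.35e-05). All 4 of the later cyclins and Cdk1 were higher, and Ccnb2 had the lowest FDR of any member at D7. It read 1064, 1145 and 1026 in WT and 2384, 2336 and 2190.5 in KO cells, 2.14-fold higher (log2FC 1.09, SE 0.08, FDR = 7.9e-40). The lowest KO library lay well above the highest WT library. Ccnb1, the main mitotic cyclin, was higher by 0.53, Cdk1 by 0.41 and Ccna2, the cyclin of S phase and G2, by 0.39. Ccnb1 and Ccnb2 have annotated pseudogenes, so reads may have been shared with these.

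Of the mitosis genes 7 of 8 were higher at D7. Top2a read 9504, 9589.8 and 9026 in WT and 14801, 16610.0 and 14599.7 in KO cells (log2FC 0.71, SE 0.08, FDR = 7.21e-18), without overlap. Aurkb, a kinase of the chromosomal passenger complex, was higher by 0.57, Birc5, its partner survivin, by 0.30, Plk1 by 0.53 and Bub1 by 0.54. Mki67 was not called at any stage, although it read 6465, 5282 and 5285 in WT and 8953, 8326 and 8614 in KO cells at D7. Its SE was 0.38 at every day of reprogramming, since 1 spread per gene was estimated over all groups, and this spread contained the value of 479 in MEF KO replicate 3. Without that library the log2FC of Mki67 was 0.65 at D5 (FDR = 2.34e-05), 0.60 at D7 (FDR = 2.31e-05) and 0.39 in ESCs (FDR = 0.0234), and with only the libraries of D7 in the fit it was 0.64 (FDR = 1.1e-14). Ccnd1, low in the same library, had a log2FC of -0.28 at D7 (FDR = 0.584, or 0.285 without that library). With only the libraries of D7 in the fit its log2FC was -0.24 (FDR = 0.00325). The KO libraries of D7 (9006 to 10340) lay below those of WT (10706 to 12451). Without MEF KO replicate 3 Ccnd1 was also called lower in KO iPSCs (log2FC -0.57, FDR = 0.0241).

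**Figure D4:**
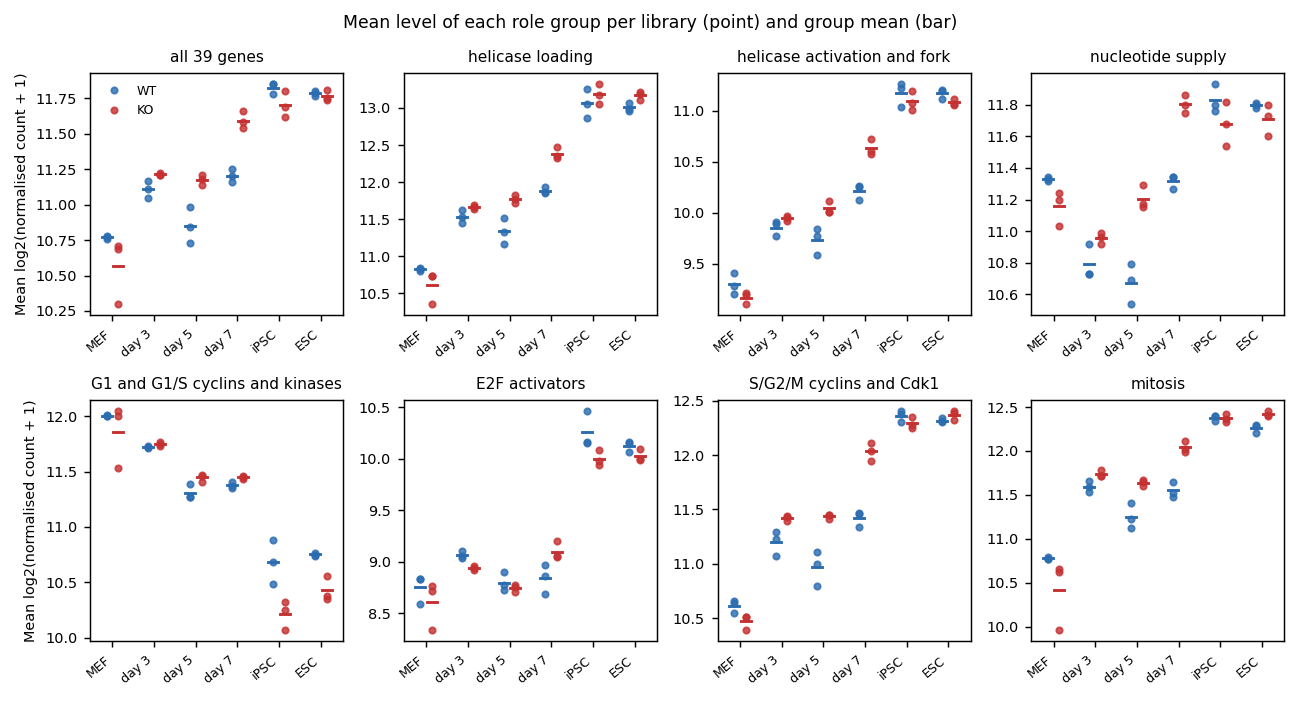
The mean log2(normalised count + 1) over the genes of each role is plotted per library (points) with the group mean (bar), WT in blue and KO in red, with a separate axis range for each panel. KO points lie above WT points at D5 and D7 in the panels of helicase loading, fork, nucleotide supply, later cyclins and mitosis. At D3 they also lie above for helicase loading and fork, by a small margin, and for later cyclins and mitosis. In ESCs they lie above for helicase loading and mitosis. KO points of MEFs lie below WT points for helicase loading, nucleotide supply, later cyclins and mitosis. For the G1 cyclins and kinases they lie above by a small margin at D5 and D7, and below in iPSCs and ESCs. For the E2F activators they lie above WT points at D7 and below them at D3 and in iPSCs.

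Tested as an interaction, the effect at D7 was larger than at D3 for 13 members and smaller for none, where 5.82% of all genes were called higher and 7.19% lower. Among the 13 the largest differences were those of Ccne1 (0.92, SE 0.21, FDR = 0.000352), Ccnb2 (0.72, FDR = 1.9e-07) and Mcm3 (0.71, FDR = 1.06e-05). With only the D3 and D7 libraries in the fit 25 were larger and 2 smaller. That fit called 3752 of all genes, where the fit of all libraries called 1030 higher and 1273 lower. Between D5 and D3 the effect was called different for Tk1 (0.97, FDR = 9.54e-06), where 0.064% of all genes were called. Without D3 WT replicate 1 no member was called, but only 28 members received an FDR in that fit. Whether Tk1 was among the 28 is not given here, so the missing call does not show a weaker effect. Ccnb2 was called at D3, D5 and D7, with log2FC of 0.38, 0.64 and 1.09.

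Markers of cell state moved with the members at both days. At D7 8 of 8 pluripotent markers were higher in KO cells, with sums of 5485 to 9467 in WT and 25609 to 33367 in KO libraries. Of 9 fibroblast markers 4 were lower and none was higher, with sums of 37944 to 46875 in WT and 12422 to 26009 in KO libraries. At D5 7 of 8 pluripotent markers were higher (1288 to 1535 in WT, 2710 to 4005 in KO) and 1 of 9 fibroblast markers was lower (35714 to 46714 in WT, 28806 to 33315 in KO). No marker of either list was at 0 in all 3 libraries of a group at these days. The 4 epithelial markers summed to 54181 to 59238 in WT and 53899 to 56250 in KO libraries at D7, where 1 of the 4 was called, Krt18, with means of 541 in WT and 2043.5 in KO cells, while Krt8, the most abundant, had means of 38007 and 31602.5. The part of these states in the results on the cell cycle was not tested. The 3 endothelial markers Cdh5, Kdr and Pecam1 summed to 164 to 227 in WT and 602 to 733 in KO libraries at D7, and the 4 macrophage markers to 289 to 378 and 474 to 505. Of the macrophage markers none was called, and Cd68 alone had a higher mean in KO cells (298 in WT, 463 in KO), while Ptprc, Adgre1 and Csf1r had lower ones.

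Other genes of the same processes were read from 3 further lists, to be set against 4.72% of all genes higher and 2.43% lower at D5, and 13.3% higher and 16.1% lower at D7. Of 36 other replication genes 18 were higher in KO cells at D5 and 20 at D7, with none lower. Dut, the dUTPase that keeps uracil out of DNA, had the lowest FDR of the list (log2FC 0.96, SE 0.10, FDR = 1.73e-18 at D7), before Rfc5, of the clamp loader (0.62), and Pold1, the catalytic subunit of polymerase delta (0.76). Of 31 other mitosis genes 23 were higher and none lower at D5, and 26 higher and 1 lower at D7, and the 3 with the lowest FDR at D7 were Kif20a (log2FC 0.65) and Kif11 (0.62), both kinesins, and Ect2 (0.59), which acts in cytokinesis. Of 15 brakes of the cell cycle 2 were higher and none lower at D5, and 5 were higher and 3 lower at D7. Rbl1, the Rb relative p107 and itself an E2F target, was higher (0.87, FDR = 1.6e-09). Cdkn1a, the p53 target p21, read a mean of 17965 in WT and 11289 in KO cells (log2FC -0.67, FDR = 1.89e-05), whereas Cdkn1b, the inhibitor p27, went from 309 to 621 (log2FC 1.01, FDR = 4.17e-05).

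In iPSC clones 1 member was higher in KO and 9 were lower, where 9.72% of all genes were higher and 6.63% lower. The 9 were Pcna, Tk1, Tyms, Ccnd2, Ccne1, Ccne2, Cdk6, E2f3 and Cdc20, and 4 of them were G1 cyclins and kinases. Ccnd2 was the only DEG among them, where 4.51% of all genes were DEGs, and KO clones lay wholly above WT for 3 members and wholly below for 8, where 11.0% and 8.56% of all genes did. Ccnd2 read 65.6, 187 and 82.6 in WT and 64.9, 36.5 and 15.2 in KO clones (log2FC -1.53, SE 0.27, FDR = 2e-06). Ccne1 read 4558, 6806 and 5733 in WT and 3221, 3279 and 3352 in KO clones (log2FC -0.80, SE 0.14, FDR = 1.04e-06). E2f3 read 1867, 1876 and 1652 in WT and 1168, 1464 and 1374 in KO clones (log2FC -0.43, FDR = 2.35e-06). Tk1 was the single called member whose groups overlapped in iPSCs. All KO clones lay below all WT clones in Ccnd2, Ccne1 and E2f3, though by less than 1 normalised count between the nearest clones for Ccnd2. The single higher member, Mcm6, read 10512, 4502 and 10389.9 in WT and 12725, 11753 and 11361 in KO clones, and WT clone 2 was far below the others. Without that clone its log2FC was 0.19 and its FDR 0.105, and without KO clone 1 its FDR was 0.115.

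The iPSC clones differed among themselves within a genotype. Mcm5 read 20025, 12639.6 and 12960.0 in WT and 14110.2, 20436 and 12600.1 in KO clones, and Cdt1 8432, 5587 and 6094 and 5526, 8153 and 6005. In both genes WT clone 1 and KO clone 2 were the high ones. With only the iPSC libraries in the fit, where the spread is that of the clones alone, 2 members were called, both lower, and Ccnd2 then had an FDR of 0.0973. That fit called 615 of all genes, where the fit of all libraries called 2043 higher and 1393 lower. The members that kept their call in each alternative were Ccne1 and Cdk6.

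In ESCs 1 member was higher in KO and 5 were lower, where 5.82% of all genes were higher and 4.29% lower. Pcna read 13778, 13745 and 12934 in WT and 11159.9, 10509.9 and 10652 in KO cells (log2FC -0.32, SE 0.07, FDR = 0.000181). Ccne2 read 456, 453 and 394 in WT and 315, 285 and 296 in KO cells (log2FC -0.54, SE 0.14, FDR = 0.00411). Top2a, the higher one, read 23260.1, 23759.6 and 24502 in WT and 28408, 29123 and 29976 in KO cells (log2FC 0.29, FDR = 0.00426). The groups did not overlap in these 3 genes. KO libraries lay wholly above WT for 13 members and wholly below for 9, where 17.7% and 15.6% of all genes did. The other lower members were Ccnd2 (-0.78), Ccne1 (-0.47) and Cdk6 (-0.52), whose calls were each lost without KO replicate 2 or without KO replicate 3. Each was also lost without at least 1 WT library, and Ccnd2 without any 1 of the 3 (FDR up to 0.0985). Ccnd2 was not called by edgeR (adjusted p = 0.125). The count of members was 3 without KO replicate 2 or without KO replicate 3, where 845 and 1137 of all genes were called. With only the ESC libraries in the fit it was 6 higher and 7 lower. The fit of ESC libraries called 2461 of all genes, where the fit of all libraries called 982 higher and 724 lower. The 3 WT libraries were samples of 1 line, so they do not carry the spread between clones that the KO libraries carry.

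All 5 members lower in KO ESCs were also lower in KO iPSCs, which is 100% of the ESC list and 55.6% of the iPSC list. The 2 comparisons share no library but take the spread of each gene from the same fit, and the overlap over all genes was not counted. Pcna had a log2FC of -0.34 in iPSCs and -0.32 in ESCs, Ccne2 -0.57 and -0.54, and Cdk6 -0.57 and -0.52. Ccne1 had -0.80 and -0.47, and Ccnd2 -1.53 and -0.78. The difference between the KO effects in iPSCs and ESCs was tested for all members, and none was called by DESeq2 or edgeR, where 1.47% of all genes were called by DESeq2 and 4 members had an unadjusted p below 0.05. Leaving out WT iPSC replicate 2 or KO iPSC replicate 3 gave 1. These fits called 226 and 605 of all genes, where the fit of all libraries called 242. None of the 8 pluripotent markers was called in iPSCs or in ESCs, with sums of 103750 to 121597 in WT and 116750 to 129660 in KO iPSCs. Of the 9 fibroblast markers 1 was higher in KO iPSCs (sums of 233 to 271 in WT, 287 to 328 in KO) and 2 in KO ESCs, and of the 4 epithelial markers 2 were higher in KO iPSCs. The 3 endothelial markers, of which Pecam1 is also known in ESCs, summed to 716 to 1659 in WT and 2237 to 3176 in KO iPSCs and to 1341 to 1493 and 2193 to 2647 in ESCs, where 1 of the 3 was higher and 1 lower, and their part in the results was not tested.

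**Figure D5:**
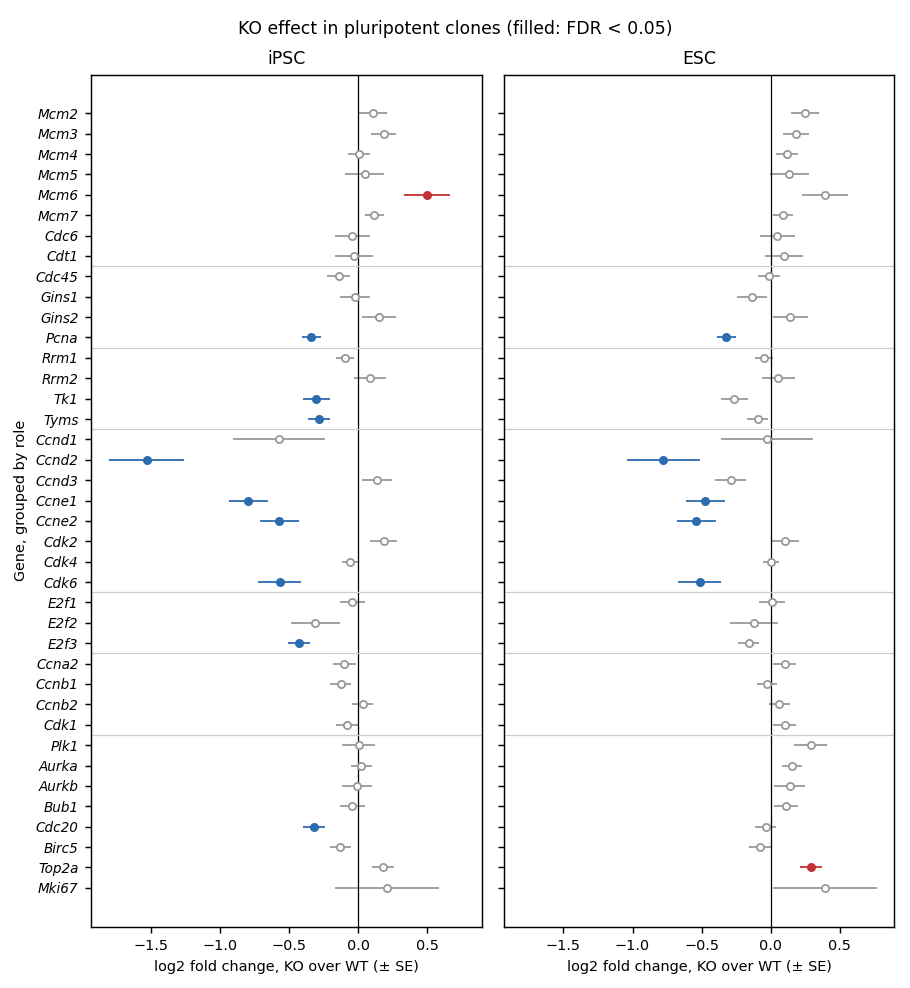
The log2 fold change of KO over WT with its SE is plotted for each gene (rows, grouped by role) in iPSC clones and in ESCs, from 3 KO and 3 WT libraries each, with filled points past FDR < 0.05. Ccnd2, Ccne1, Ccne2, Cdk6 and Pcna are filled and left of 0 in both panels, and of the later cyclins and mitosis genes Cdc20 in iPSCs and Top2a in ESCs are the filled points.

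The direction of several members was not the same in intermediates and in clones, by their own values. Ccne1 had 0.87 at D7 and -0.80 in iPSCs, Tk1 0.89 and -0.30, Tyms 0.35 and -0.28, and Cdc20 0.28 and -0.32, each of them called at both stages. Of their iPSC calls only that of Ccne1 was kept in each alternative. With only the iPSC libraries in the fit the FDR was 0.277 for Tk1, 0.184 for Tyms and 0.195 for Cdc20. The iPSC call of Tk1 was also lost without WT replicate 1, KO replicate 1 or KO replicate 3. Ccnd2 was lower at D7, in iPSCs and in ESCs, though its calls in iPSCs and in ESCs were each lost under at least 1 alternative. Differences between the effect at D7 and that in clones were not tested. In iPSCs 2 of 36 other replication genes were higher and 1 lower, and 2 of 31 other mitosis genes were higher, where 9.72% of all genes were higher and 6.63% lower. In ESCs 2 of the 36 and 5 of the 31 were higher, where 5.82% of all genes were. Of the brakes 2 of 15 were higher in iPSCs, among them Cdkn1a (log2FC 0.61, FDR = 0.000626), and none was called in ESCs.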

How the data were processed

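RNA-seq libraries of poly(A) RNA were made with a stranded kit from 36 samples, 3 in each of 12 groups. Per the study's methods and the submitters' processing notes, the authors trimmed reads with Cutadapt, aligned them to GRCm38 with STAR, counted them per gene with Rsubread and deposited raw counts, together with normalised counts (signal) that equal the counts divided by DESeq2 size factors within a relative difference of 4.98e-15. The versions of Cutadapt, STAR and Rsubread, the annotation release and the strand setting of the counting are not given in the sources used here. The deposited rlog matrix, corrected for the date of library preparation, and the authors' comparison tables, which hold fold changes, p-values and FDR, were not used.

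Counts were fitted with DESeq2 1.42.0 (R 4.3.3, Wald test, Benjamini-Hochberg FDR over all genes, no shrinkage) with 1 factor of 12 groups over all 36 libraries. A call needed an FDR below 0.05, and a DEG also an absolute log2FC above 1. There were 6 comparisons of KO with WT, 8 of neighbouring stages and 3 differences of KO effects. Alternatives were edgeR 4.0.16, TMM size factors, a minimum of 10 counts in 3 libraries, only the groups compared, a replicate block and leaving out each library. Leaving out MEF KO replicate 3 from every comparison was chosen after seeing the data. Figures used matplotlib 3.10.9. Totals per library were 19224103 to 39610939 counts, and the lowest count of a member was 15, where counting error is large. Scripts were tested on simulated data.

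The 39 members, the roles and the other lists were chosen with earlier results of these data known. Values in every library are given, in each role, for the member with the lowest FDR at D7, for the 3 members with the lowest FDR at D5, in iPSCs and in ESCs, and for the 3 with the largest change from MEFs to D3 and from D7 to iPSCs. Other genes given in this way, such as Mki67, were chosen after their values were seen. The same holds for other comparisons of genes that the rule names, such as Ccnd1 in MEFs and Mcm6 in iPSCs.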

Additional observations from a re-analysis of the deposited data

Results flagged for a closer look

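The KO effect differed between days by an interaction test for 13 members between D7 and D3 and for 1 between D5 and D3. The differences of log2FC between D7 and D3 were 0.527 for Mcm2, 0.708 for Mcm3, 0.362 for Mcm4 and 0.383 for Mcm7 among the helicase genes, and 0.454 for Cdc45. They were 0.662 for Tk1, 0.916 for Ccne1, 0.575 for Cdk2 and 0.665 for E2f1. Among genes of the later phases they were 0.371 for Ccnb1, 0.717 for Ccnb2, 0.443 for Aurkb and 0.478 for Top2a. Between D5 and D3 the difference was 0.969 for Tk1. All 14 were positive, with FDR from 1.9e-07 (Ccnb2) to 0.0438 (Aurkb). Single outlying samples were not tested for, since each group had 3 libraries.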

How the results depend on the processing

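Of 66 calls of members between KO and WT, 46 were kept under every alternative, 20 were lost under at least 1 and none reversed. Kept calls were 14 of 19 at D5, 27 of 30 at D7, 2 of 10 in iPSCs, 3 of 6 in ESCs and 0 of 1 at D3. With only the groups compared in the fit, the count of members called was 3 at D3, 30 at D5, 2 in iPSCs and 13 in ESCs, 22 between D5 and D3 in KO cells, and 2 (D5) and 27 (D7) for differences of the KO effect from D3. Over all genes the number called moved in the same direction in each of these fits. By edgeR the count of members was 0 at D3. Leaving out 1 library gave 0 to 2 members in MEFs, 0 to 2 at D3, 3 to 9 in ESCs, 0 to 2 between WT ESCs and iPSCs, 0 to 1 for the D5 minus D3 effect and 0 to 1 for the iPSC minus ESC effect. The count of 0 for the D5 minus D3 effect came without D3 WT replicate 1, where only 28 members received an FDR. Without MEF KO replicate 3, an alternative chosen after seeing the data, the count was 2 at D3 and 2 between WT ESCs and iPSCs. Of the alternative counts, 199 stayed within 1.5 times and 21 did not, and the cause was not tested. TMM factors moved the median of all genes by at most 0.0882 on the log2 scale.

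Correlations of the deviations of same-numbered WT and KO libraries ran from 0.0467 to 0.21 at D3, D5 and D7, where not every pair was above 0.1, and from -0.112 to 0.174 at the other stages. Neither they nor the labels establish a pairing, and none was assumed. With a replicate block the counts were 0 in MEFs, 1 at D3, 24 at D5, 31 at D7, 10 in iPSCs and 7 in ESCs. With 3 libraries a group, small changes of low genes such as Ccnd2 in pluripotent cells are limited by depth and by the spread between clones.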
